A study of Homo sapiens with 24 samples.

Results

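The Janus kinases JAK1, JAK2 and TYK2 and the transcription factors STAT2, STAT3, STAT4, STAT5A, STAT5B and STAT6 were followed in lymphoma cells treated with histone deacetylase inhibitors (HDACi). These 9 genes were taken by their symbols in the annotation of the Illumina HumanHT-12 v4 array, which named 10 probes for 8 of them, out of 20046 genes with a probe. STAT3 had 3 probes and each of the other 7 genes had 1 probe. No probe carried the symbol STAT2, and this gene was not analysed here.

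Janus kinases sit on the inner tails of cytokine receptors that have no kinase of their own. When interleukins or interferons bring the receptor chains together, the kinases phosphorylate each other, the receptor and then the STAT proteins, which pair up, enter the nucleus and bind DNA. In B cells, STAT6 carries the interleukin-4 signal, STAT3 acts downstream of the interleukin-6, interleukin-10 and interleukin-21 receptors, STAT5A and STAT5B act downstream of the interleukin-2 family, and STAT4 is known mainly from interleukin-12 signaling in T and NK cells. In diffuse large B-cell lymphoma (DLBCL) of the activated B-cell type (ABC), interleukin-6 and interleukin-10 made by the tumor cells are known to drive this route.

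RNA came from 2 established human DLBCL cell lines, DoHH2 of the germinal center B-cell type (GCB) and TMD8 of the ABC type. Each line was treated for 8 h with ITF-A at 100 nM, with ITF-B at 200 nM, or with DMSO, the solvent, in a separate control group for each compound. Both compounds are hydroxamic acid HDACi, called ITF-A and ITF-B in the study. The 8 groups held 3 arrays each, 1 from each of 3 independent experiments, and lay on 2 chips of 12 arrays. Each histology was represented by 1 line, so that a difference between the lines cannot be told apart from a difference between the lymphoma types, and in RNA of whole cultures fewer expressing cells and less RNA per cell cannot be told apart. The doses of the compounds differed, and their values are therefore set side by side with no test between them.

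Values are log2 intensities after background correction and quantile normalization, called levels here, and a change is the mean of 3 treated arrays minus the mean of the 3 DMSO arrays of the same line and compound. A gene was called when its adjusted p from the linear model in limma was under 0.05 over all 47231 probes. Levels of different probes are not compared, since probes differ in binding. Deposited intensities ran from 70.3 to 26194.5, and the median level of all probes was 6.16. B-cell markers MS4A1, CD79A, CD79B and CD22 were present in both lines and PAX5 was dim. Of the GCB markers, MME was higher in DoHH2 cells, while BCL6, LMO2, MYBL1 and SERPINA9 were higher in TMD8 cells, which goes against the labels. BCL6 was at 5.84 in DoHH2 DMSO arrays and at 9.15 in TMD8 DMSO arrays. Of the ABC markers, IRF4, FUT8, ENTPD1 and CCND2 were higher in TMD8 cells and TNFRSF13B was not called (10.63 in DoHH2 and 10.52 in TMD8 cells). The mean level over 17 markers of T, NK, myeloid, epithelial and fibroblast cells lay between 6.05 and 6.16 on DMSO arrays and rose to between 6.23 and 6.27 on treated TMD8 arrays, where CSF1R (0.92 and 0.89), CD14, COL1A1 and COL1A2 had higher and KRT19 (-0.48 and -0.57), MPO and COL3A1 lower values than in DMSO. CSF1R, CD14 and COL1A1 were also higher on treated DoHH2 arrays, by 0.25 to 0.44, while the T-cell markers CD3D, CD3E and CD3G lay below the median of probes. The T-cell marker CD2 was above 47.8% of probes over all arrays. It was called higher in DoHH2 cells, at 6.32 in DoHH2 DMSO arrays, above that median, and at 6.12 in TMD8 DMSO arrays. In DoHH2 cells CD2 changed by -0.17 and -0.35. The part of these markers in the results was not tested.

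In untreated cells, JAK2 and STAT3 were higher in TMD8 and STAT5A was higher in DoHH2, the largest differences among the measured genes. Levels of JAK2 on the 6 DMSO arrays ran from 6.49 to 6.74 in DoHH2 cells (median 6.61) and from 8.54 to 8.67 in TMD8 cells (median 8.64). STAT3, read from its brightest probe, ran from 8.28 to 8.57 (median 8.35) in DoHH2 cells and from 10.08 to 10.33 (median 10.20) in TMD8 cells. STAT5A showed the opposite order, from 8.82 to 8.94 (median 8.88) in DoHH2 cells and from 6.59 to 6.93 (median 6.73) in TMD8 cells. For none of these 3 genes did the arrays of the lines overlap. How many of all genes lay apart in this way was not counted, here or after treatment. The difference TMD8 minus DoHH2 was 2.02 ± 0.0528 (SE) on the log2 scale for JAK2 (4.05-fold, adjusted p = 3.35e-30), 1.83 ± 0.0566 for STAT3 (3.55-fold, adjusted p = 1.15e-27) and -2.15 ± 0.0534 for STAT5A (adjusted p = 4.71e-31). All 3 STAT3 probes gave this direction, with differences of 1.83, 1.55 and 1.23. Without normalization between arrays, a setting chosen after seeing the data that moved the median of all genes by -0.111 here, JAK2 differed by 1.55, STAT3 by 1.42 and STAT5A by -2.15, and all were called.

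The other 5 genes differed less between the untreated lines. STAT5B was lower in TMD8 cells, with a mean of 6.67 ± 0.0901 (SD, n = 6 arrays) against 7.07 ± 0.0806 in DoHH2 cells and a difference of -0.38 (adjusted p = 3.44e-07). TYK2 was 0.33 and STAT6 0.28 higher in TMD8 cells (adjusted p = 9.95e-06 and 3.21e-05). These 2 differences were seen after normalization only. Before it, the mean intensities were 1611 and 1620 for TYK2 and 706 and 707 for STAT6 in DoHH2 and TMD8 cells. Without it the log2 differences were -0.04 and -0.06 (adjusted p = 0.514 and 0.415). In that setting the median difference of all genes above the median of probes was -0.17, so that the raw values are no neutral baseline either. JAK1 (8.17 ± 0.0993 and 8.27 ± 0.208) and STAT4 (6.18 ± 0.111 and 6.19 ± 0.148) did not pass the test between the lines, with 95% confidence intervals of -0.05 to 0.23 and -0.12 to 0.09. STAT4 lay near the middle of all probes, above 52.9% of them in DoHH2 and 53.7% in TMD8 cells. In all, 6 of the 8 genes differed between the untreated lines, beside 43.8% of all genes and 65.2% of the genes above the median of probes.

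The separate DMSO groups of a line gave a measure of how far controls drift apart. None of the 8 genes was called between the DMSO group for ITF-A and that for ITF-B by limma, beside 0.00499% of all genes in DoHH2 and 0.0449% in TMD8 cells. At an unadjusted p under 0.05 the counts over the brightest probes were 0 and 1. The gene counted was STAT4 in TMD8 cells, which was 0.20 higher in the DMSO group for ITF-A (adjusted p = 0.571). The dimmest STAT3 probe also passed this unadjusted bound in DoHH2 cells (-0.20, unadjusted p = 0.0215, adjusted p = 0.873).

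**Figure D1:**
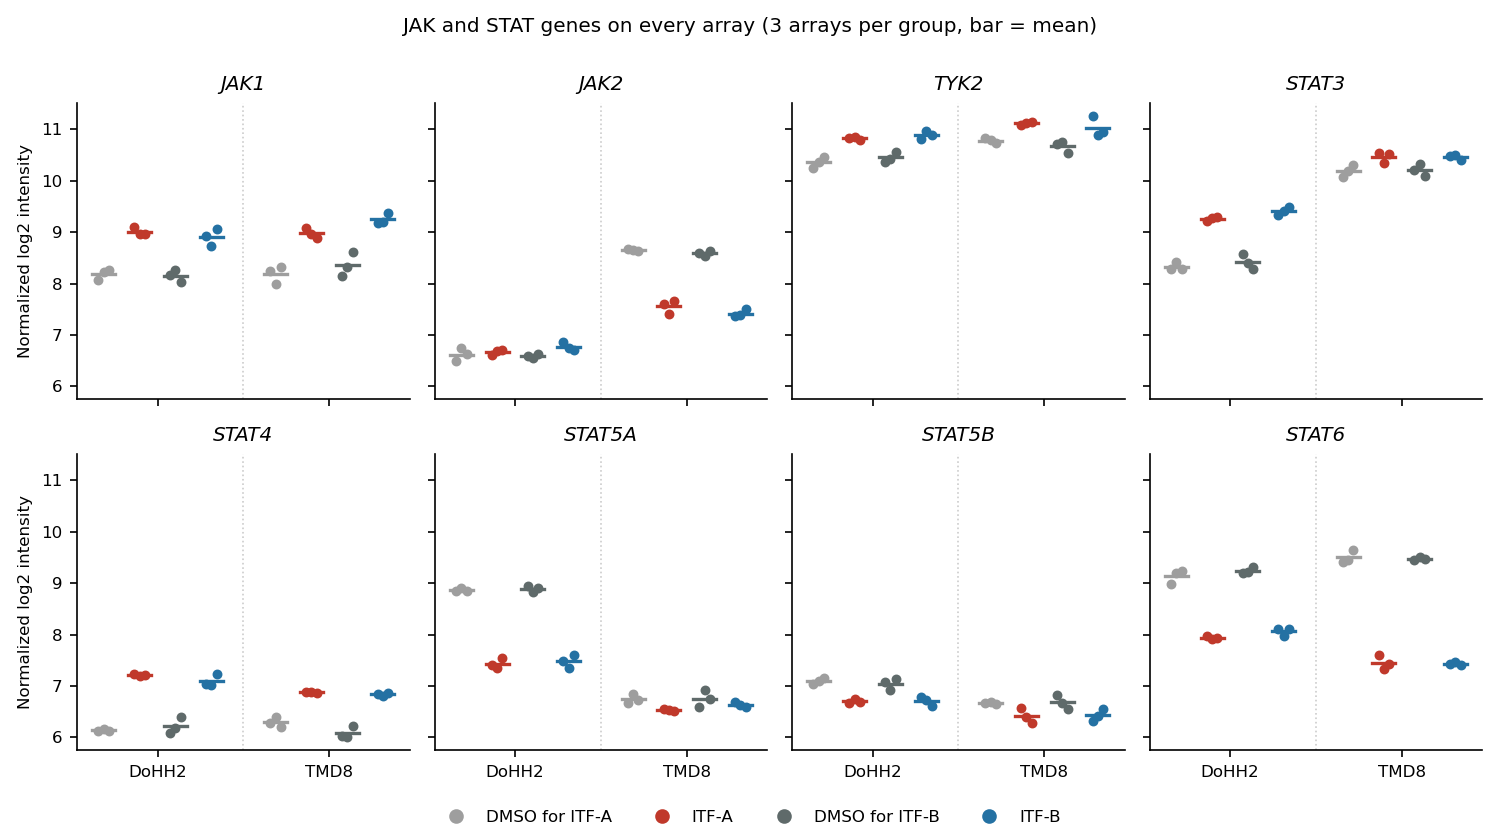
Levels (normalized log2 intensity, y axis) of the 8 measured genes on every array, grouped by line (x axis) and colored by treatment; points are arrays (3 per group) and bars are group means. JAK1, TYK2, STAT3 and STAT4 lay higher after treatment in both lines, STAT6 lower in both, JAK2 lower in TMD8 cells only and STAT5A mainly lower in DoHH2 cells.

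HDACi treatment raised 4 of the 8 genes in each line and with each compound, JAK1, TYK2, STAT3 and STAT4. It lowered STAT5B and STAT6 in all 4 comparisons, STAT5A in 3 of 4 and JAK2 in TMD8 cells alone. JAK2 in DoHH2 and STAT5A and STAT5B in TMD8 DMSO arrays were dim (means 6.61, 6.75 and 6.67, median of all probes 6.16). A fall could be read there over a short range only. Counted by comparison, 4 genes rose and 3 fell in DoHH2 cells under either compound, and in TMD8 cells 4 rose and 4 fell after ITF-A, while 4 rose and 3 fell after ITF-B. In the same comparisons 19% of all genes rose and 17.2% fell (ITF-A, DoHH2), 18.8% rose and 17% fell (ITF-B, DoHH2), 19.2% rose and 17.8% fell (ITF-A, TMD8), and 19.3% rose and 17.4% fell (ITF-B, TMD8). All 8 genes had a mean above the median of probes, and among the 12688 genes above it 54.4% to 55.5% were called in either direction.

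Among the kinases, JAK1, which pairs with many receptors of the interferon and interleukin families, rose in both lines. In DoHH2 cells it was at 8.08, 8.22 and 8.26 on the DMSO arrays of experiments 1 to 3 and at 9.11, 8.97 and 8.96 with ITF-A. The DMSO group for ITF-B gave 8.17, 8.27 and 8.03, against 8.92, 8.74 and 9.06 with ITF-B. TMD8 cells were at 8.24, 7.99 and 8.32 before and at 9.08, 8.95 and 8.89 after ITF-A, and at 8.14, 8.31 and 8.61 before and 9.18, 9.19 and 9.36 after ITF-B. Every treated array lay above every DMSO array of its own comparison. The rises were 0.83 (ITF-A) and 0.75 (ITF-B) in DoHH2 cells, and TMD8 cells gave 0.79 and 0.89 (1.68-fold to 1.85-fold, SE 0.0949, adjusted p from 2.69e-10 to 1.7e-08). The rise in TMD8 minus that in DoHH2 cells came to -0.04 for ITF-A (95% confidence interval -0.31 to 0.24) and for ITF-B to 0.14 (-0.13 to 0.41), and neither passed the test. Without normalization the ITF-B rise was 0.48 in DoHH2 and 0.91 in TMD8 cells, and their difference of 0.42 was not called either (adjusted p = 0.164).

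TYK2, the kinase of type I interferon and interleukin-12 receptors, rose by less. Its DMSO group means were 10.36 and 10.45 in DoHH2 and 10.78 and 10.67 in TMD8 cells, and the treated means were 10.83, 10.89, 11.12 and 11.03, with no overlap between treated and own DMSO arrays. The ITF-A changes were 0.46 in DoHH2 and 0.34 in TMD8 cells and the ITF-B changes 0.43 and 0.35 (SE 0.0798, adjusted p at most 0.000788). The difference of the changes between the lines was -0.12 (95% confidence interval -0.35 to 0.10) for ITF-A, and for ITF-B it was -0.08 (-0.31 to 0.15). Neither was called. Without the ITF-B array of experiment 1 the ITF-B change in TMD8 cells was 0.23. Without normalization the DoHH2 changes were 0.21 (adjusted p = 0.0284) and 0.13 (adjusted p = 0.219), which ends the ITF-B call, and the ITF-B difference between the lines turned to 0.34 (adjusted p = 0.0135).

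JAK2, the kinase of the erythropoietin, growth hormone and interleukin-3 receptors that also serves the interferon gamma receptor, fell in TMD8 cells, the line in which it was high. The TMD8 DMSO arrays for ITF-A were at 8.67, 8.65 and 8.63, and the ITF-A arrays were at 7.60, 7.41 and 7.66. With ITF-B the values went from 8.60, 8.54 and 8.64 to 7.36, 7.38 and 7.50. In DoHH2 cells they were 6.49, 6.74 and 6.62 before and 6.61, 6.69 and 6.71 after ITF-A, and 6.59, 6.56 and 6.62 before and 6.86, 6.75 and 6.71 after ITF-B. Treated TMD8 arrays thus stayed above all DoHH2 arrays. The falls in TMD8 cells were -1.09 and -1.18 (to 0.47 and 0.44 of the DMSO level, SE 0.0724, adjusted p = 3.94e-16 and 3.89e-17). The changes in DoHH2 cells, 0.05 and 0.18, did not pass (adjusted p = 0.742 and 0.0637). The second of them came close to the threshold, passed it in 5 of the alternative settings, and passed it without the TMD8 ITF-A array of experiment 2, which enters it only through the shared spread and the adjustment (0.18, adjusted p = 0.0497). The changes differed between the lines, by -1.15 for ITF-A and for ITF-B by -1.36 (SE 0.102, adjusted p = 1.19e-11 and 8.97e-14).

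**Figure D2:**
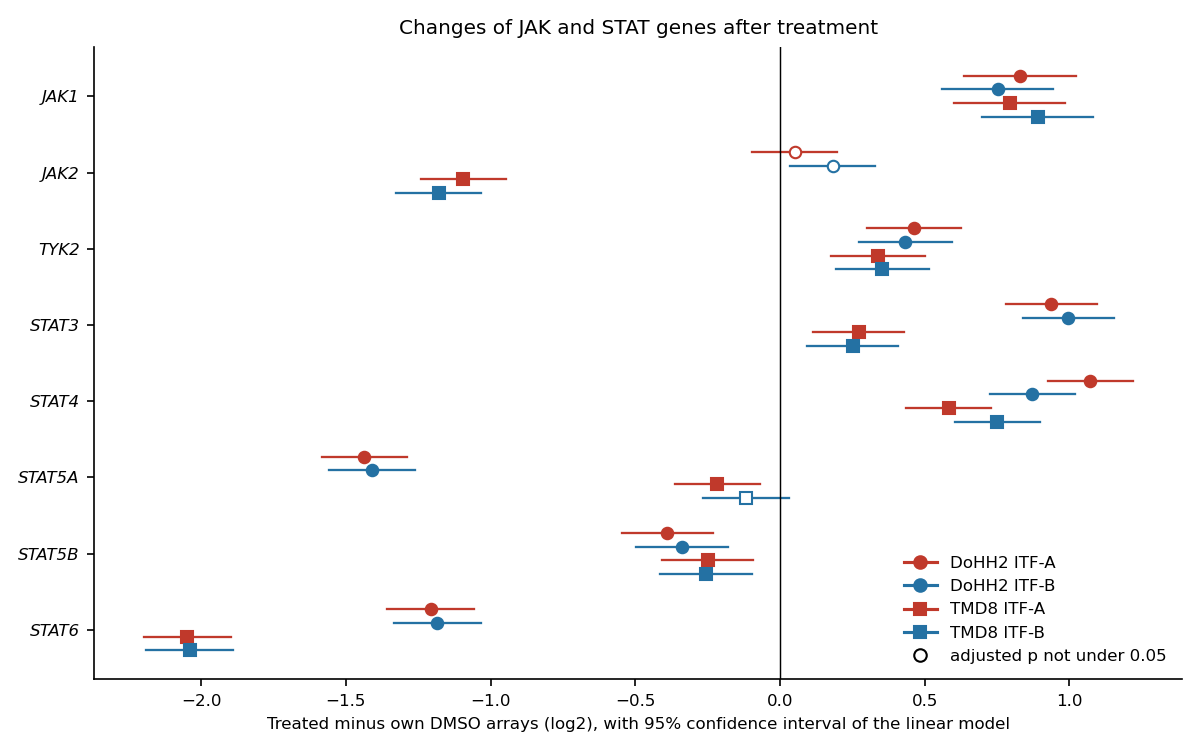
Change of each gene against its own DMSO arrays (x axis, log2) with the 95% confidence interval of the linear model; circles are DoHH2 and squares TMD8 cells, red ITF-A and blue ITF-B, and open symbols did not pass the test. The intervals of JAK2, STAT3, STAT5A and STAT6 in DoHH2 cells lay apart from those in TMD8 cells, while those of JAK1, TYK2 and STAT5B overlapped.

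Of the transcription factors, STAT6 showed the largest changes among the measured members with both compounds in TMD8 cells. In DoHH2 cells it was at 8.99, 9.20 and 9.23 on the DMSO arrays and at 7.96, 7.90 and 7.94 with ITF-A, and at 9.20, 9.22 and 9.31 on the DMSO arrays and 8.11, 7.97 and 8.10 with ITF-B. TMD8 cells went from 9.41, 9.44 and 9.64 to 7.59, 7.34 and 7.42 with ITF-A and from 9.45, 9.50 and 9.47 to 7.43, 7.46 and 7.40 with ITF-B. Treated and DMSO arrays did not overlap in any comparison, and TMD8 arrays lay above the DoHH2 arrays before and below them after treatment. The changes were -1.21 and -1.18 in DoHH2 cells (to 0.43 and 0.44 of the DMSO level) and -2.05 and -2.04 in TMD8 cells (to 0.24 of it with each compound, SE 0.0742, adjusted p from 1.66e-24 to 1.01e-16). In TMD8 cells 0.314% and 0.304% of all genes had a lower change. As TMD8 minus DoHH2 the changes differed by -0.84 after ITF-A treatment, and by -0.86 after ITF-B (SE 0.105, adjusted p = 4.2e-08 and 2.89e-08). Without normalization these differences were -0.54 and -0.42 (adjusted p = 0.00823 and 0.0306).

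STAT3 rose in both lines, and more in DoHH2 cells, where it was lower to begin with. Its brightest probe stood at 8.28, 8.42 and 8.28 in DoHH2 cells before and at 9.23, 9.27 and 9.30 after ITF-A, and at 8.57, 8.40 and 8.29 before and 9.34, 9.41 and 9.49 after ITF-B. In TMD8 cells the values were 10.08, 10.19 and 10.30 before and 10.54, 10.34 and 10.51 after ITF-A, and 10.21, 10.33 and 10.09 before and 10.48, 10.50 and 10.40 after ITF-B. The treated arrays lay above the DMSO arrays in all 4 comparisons, by a narrow margin in TMD8 cells. The changes were 0.94 and 0.996 in DoHH2 cells (1.91-fold and 1.99-fold, SE 0.0777, adjusted p = 3.55e-13 and 6.52e-14) and 0.27 and 0.25 in TMD8 cells (1.21-fold and 1.19-fold, adjusted p = 0.00582 and 0.012). The rise was smaller in TMD8 cells, with a difference TMD8 minus DoHH2 of -0.66 for ITF-A, and for ITF-B of -0.74 (SE 0.11, adjusted p = 1.1e-05 and 1.36e-06). Without normalization the ITF-A difference was -0.45 (adjusted p = 0.0373), and the ITF-B difference of -0.35 was not called (adjusted p = 0.0855). These are RNA values at 8 h. For treated TMD8 cells the paper's text reports less total and phosphorylated STAT3 protein at a later time, though its figure legend words the blot as a rise.

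The small rise of STAT3 in TMD8 cells depended on single arrays and on settings. With ITF-A it was 0.20 (adjusted p = 0.0879) without the DMSO array of experiment 1 and 0.23 (adjusted p = 0.0523) without the ITF-A array of experiment 1. With ITF-B it was 0.19 (adjusted p = 0.114) without the DMSO array of experiment 3 and 0.23 (adjusted p = 0.059) without the ITF-B array of experiment 2. The ITF-B call was also lost with an offset of 16 (0.26, adjusted p = 0.0699) and the ITF-A call without normalization (0.27, adjusted p = 0.064). The other STAT3 probes were called higher in all 4 comparisons as well. The probe at 7.19 in DoHH2 DMSO arrays rose by 0.68 and 0.80 in DoHH2 and by 0.28 and 0.30 in TMD8 cells, and its arrays overlapped in both TMD8 comparisons. The dimmest probe, at 6.93 in DoHH2 DMSO arrays, rose by 0.71 and 0.62 and by 0.36 and 0.36. The difference between the lines was called at all 3 probes with ITF-A (-0.66, -0.40 and -0.36). With ITF-B the dimmest probe did not pass (-0.27, adjusted p = 0.159) and the others did (-0.74 and -0.50).

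STAT5A and STAT5B are close paralogs that respond to the same cytokines, and how well their probes tell them apart was not checked here. STAT5A fell in DoHH2 cells, the line in which it was high. It was at 8.85, 8.90 and 8.86 before and at 7.42, 7.34 and 7.55 after ITF-A, and at 8.94, 8.82 and 8.91 before and 7.48, 7.35 and 7.60 after ITF-B. TMD8 cells gave 6.67, 6.84 and 6.73 before and 6.55, 6.54 and 6.51 after ITF-A, and 6.59, 6.93 and 6.74 before and 6.69, 6.63 and 6.59 after ITF-B. Treated DoHH2 arrays lay below their DMSO arrays and still above all TMD8 arrays. The changes were -1.44 and -1.41 in DoHH2 cells (to 0.37 and 0.38 of the DMSO level, SE 0.0732, adjusted p = 1.62e-19 and 3.12e-19). In TMD8 cells they were -0.22 with ITF-A (adjusted p = 0.0232) and -0.12 with ITF-B (adjusted p = 0.318, groups overlapping). The ITF-A call in TMD8 cells was lost without the DMSO array of experiment 2 (-0.18, adjusted p = 0.119), the ITF-A array of experiment 2 (-0.21, adjusted p = 0.0734) or that of experiment 3 (-0.19, adjusted p = 0.0989), and without normalization (-0.09, adjusted p = 0.611). The change in TMD8 minus that in DoHH2 cells was 1.22 for ITF-A, and for ITF-B it was 1.29 (SE 0.104, adjusted p = 2.83e-12 and 5.48e-13).

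STAT5B fell by little in both lines. DMSO means were 7.09 and 7.04 in DoHH2 and 6.67 and 6.68 in TMD8 cells, and treated means were 6.70, 6.70, 6.42 and 6.42. ITF-A changed it by -0.39 in DoHH2 and -0.25 in TMD8 cells (SE 0.0781, adjusted p = 9.72e-05 and 0.0128), ITF-B by -0.34 and -0.26 (adjusted p = 0.000635 and 0.011), and the arrays overlapped in TMD8 cells with ITF-B. Without the ITF-A array of experiment 3 the ITF-A change in TMD8 cells was -0.19 (adjusted p = 0.129). The ITF-B change in TMD8 cells was -0.18 without the DMSO array (adjusted p = 0.145) or the ITF-B array (adjusted p = 0.142) of experiment 1. Without normalization neither TMD8 change was called (-0.12 and -0.09, adjusted p = 0.402 and 0.499). Between the lines the changes of STAT5B differed by 0.14 (95% confidence interval -0.08 to 0.36) and 0.08 (-0.14 to 0.31), which did not pass.

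STAT4 rose in both lines from a level near the middle of all probes. DMSO means were 6.14 and 6.22 in DoHH2 and 6.29 and 6.09 in TMD8 cells, and treated means were 7.21, 7.09, 6.87 and 6.84, with no overlap in any comparison. The rises with ITF-A were 1.07 in DoHH2 and 0.58 in TMD8 cells, those with ITF-B 0.87 and 0.75 (SE 0.0726, adjusted p at most 1.13e-08). The levels before treatment were low and an offset of 50 was added to the intensities, and the size of these rises depended on such settings. The highest of them, in DoHH2 cells with ITF-A, was 1.65 with an offset of 16 and 0.80 without normalization. The ITF-A rise was smaller in TMD8 cells by -0.49 (SE 0.103, adjusted p = 0.000422), and the ITF-B difference of -0.12 was not called (adjusted p = 0.588). Against both DMSO groups of each line together they were -0.34 (adjusted p = 0.00367) and -0.26 (adjusted p = 0.0317), and without normalization -0.32 (adjusted p = 0.045) and 0.01 (adjusted p = 0.933).

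In all, 5 of the 8 genes differed between the lines in their change with ITF-A (JAK2, STAT3, STAT4, STAT5A and STAT6) and 4 with ITF-B (all of these but STAT4), beside 22.4% and 22.6% of all genes. Among genes above the median of probes these shares were 33.7% and 34.1%. For JAK2, STAT3 and STAT5A the distance between the lines became smaller. JAK2 was 2.03 higher in TMD8 cells in the DMSO groups for ITF-A and 0.89 higher with ITF-A, and the corresponding values for ITF-B were 2.00 and 0.64. STAT3 went from 1.86 to 1.20 and from 1.79 to 1.045. STAT5A went from -2.12 to -0.90 and from -2.14 to -0.84. The order of the lines changed for STAT6 with both compounds, from 0.36 to -0.48 (ITF-A) or from 0.23 to -0.63 (ITF-B). The DMSO difference of STAT6 was seen after normalization only. STAT4 went from 0.15 to -0.34 with ITF-A, starting from a DMSO difference that was not called.

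Each experiment of a line lay on 1 chip, and the direction of every called change of a member was the same on each chip alone. With the 1 or 2 arrays per group that a chip held, smaller changes lost their call there. On chip 1 these were TYK2 in DoHH2 cells (0.33 and 0.32, adjusted p = 0.0818 and 0.1), STAT3 in TMD8 cells (0.18 and 0.24, adjusted p = 0.236 and 0.0796) and STAT5B in TMD8 cells with ITF-B (-0.13, adjusted p = 0.416), and the DMSO difference of TYK2 (0.19, adjusted p = 0.0801). On chip 2 they were TYK2, STAT5A and STAT5B in TMD8 cells with ITF-A (0.26, -0.12 and -0.10, adjusted p = 0.223, 0.654 and 0.732) and STAT3 there with ITF-B (0.27, adjusted p = 0.19). The ITF-A difference between the lines fell short for STAT4 on both chips (-0.50 and -0.47, adjusted p = 0.0582 and 0.0514) and for STAT3 on chip 2 (-0.44, adjusted p = 0.103). The calls of JAK1, JAK2 in TMD8 cells, STAT5A in DoHH2 cells and STAT6 were made on each chip.

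**Figure D3:**
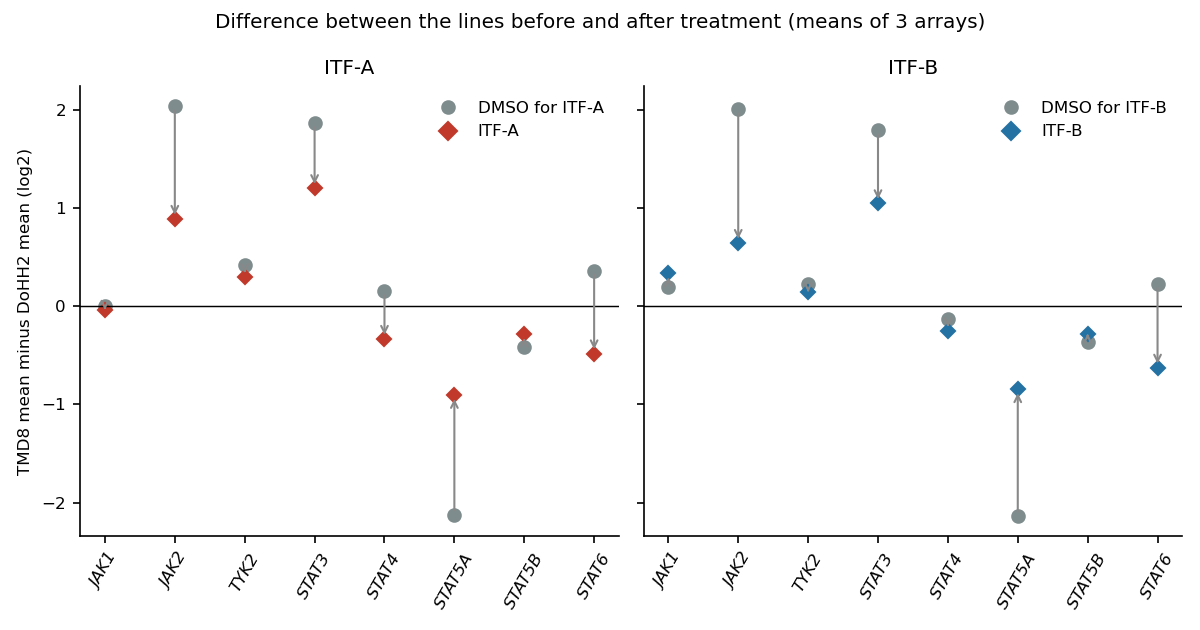
Mean level in TMD8 minus mean level in DoHH2 cells (y axis, log2, 3 arrays per mean) for each gene (x axis) on DMSO arrays (gray circles) and treated arrays (diamonds), with ITF-A left and ITF-B right. Treatment brought JAK2, STAT3 and STAT5A nearer to 0, and STAT6 moved from above to below 0.

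STAT5B, STAT5A and STAT3 lie next to each other on chromosome 17, so that neighboring genes moved in opposite directions: STAT5A and STAT5B fell and STAT3 rose in DoHH2 cells. In RefSeq on GRCh38.p14 the STAT5B and STAT5A starts shown here lie 11048 bases apart on opposite strands, and 1380 bases separate the end of STAT5A from the end of STAT3. Their promoters are shown because of these unlike changes, with that of STAT6 as the gene of the largest fall. Each sequence runs 5′ to 3′ on the gene's strand from 250 bases before to 50 bases after the most upstream of the starts that the promoter table lists. The gene records of STAT5B and STAT6 reach further upstream than these starts, and that of STAT5B overlaps that of STAT5A by 932 bases. The regions are chr17:42276342-42276641 (minus strand) for STAT5B, chr17:42287189-42287488 (plus strand) for STAT5A, chr17:42388393-42388692 (minus strand) for STAT3 and chr12:57110240-57110539 (minus strand) for STAT6, all on GRCh38.p14. Capitals mark GC boxes (GGGCGG on either strand).
STAT5B: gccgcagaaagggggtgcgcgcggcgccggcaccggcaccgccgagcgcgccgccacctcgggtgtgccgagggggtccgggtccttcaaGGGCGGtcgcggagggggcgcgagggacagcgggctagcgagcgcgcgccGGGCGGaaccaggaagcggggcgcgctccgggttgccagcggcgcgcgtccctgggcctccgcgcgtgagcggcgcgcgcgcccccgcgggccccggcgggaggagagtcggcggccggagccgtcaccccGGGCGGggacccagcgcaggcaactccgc
STAT5A: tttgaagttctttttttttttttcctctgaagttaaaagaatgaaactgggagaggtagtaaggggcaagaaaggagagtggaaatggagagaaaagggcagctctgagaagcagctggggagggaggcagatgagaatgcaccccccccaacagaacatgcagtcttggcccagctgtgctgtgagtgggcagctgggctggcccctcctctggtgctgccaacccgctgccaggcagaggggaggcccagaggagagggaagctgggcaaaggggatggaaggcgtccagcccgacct
STAT3: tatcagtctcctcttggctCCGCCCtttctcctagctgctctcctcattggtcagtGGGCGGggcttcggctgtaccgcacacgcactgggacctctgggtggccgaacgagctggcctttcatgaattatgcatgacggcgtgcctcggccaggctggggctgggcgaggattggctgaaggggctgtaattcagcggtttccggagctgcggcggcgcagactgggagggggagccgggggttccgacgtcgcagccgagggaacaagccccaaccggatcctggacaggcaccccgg
STAT6: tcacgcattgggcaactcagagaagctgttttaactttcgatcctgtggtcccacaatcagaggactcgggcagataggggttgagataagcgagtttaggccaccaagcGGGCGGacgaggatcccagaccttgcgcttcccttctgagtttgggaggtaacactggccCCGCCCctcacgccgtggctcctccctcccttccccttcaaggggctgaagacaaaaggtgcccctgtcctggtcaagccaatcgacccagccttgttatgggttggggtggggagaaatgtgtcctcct

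The STAT5B promoter held 3 GC boxes, 55 CpG dinucleotides and 82% G and C. That of STAT5A held no GC box, 3 CpG dinucleotides and 56.3% G and C. STAT3 had 2 GC boxes and 23 CpG dinucleotides, and STAT6 had 2 and 12. Among 35116 RefSeq promoters of the same length, 45% held a GC box, and the median was 14 CpG dinucleotides and 58.7% G and C. The STAT recognition motif in the form TTCNNNGAA was in none of the 8 promoters of the measured genes and in 7.66% of all promoters. Forms with another gap between TTC and GAA were not searched, so that the promoters cannot be called free of STAT sites. The STAT5A sequence shown above holds TTCCTCTGAA, in which this gap is wider. TYK2 had 6 copies of CCAAT, counted on both strands, a number reached by 0.122% of promoters. None of the 8 held TATAAA, which 11.5% of promoters did. These are descriptions of the sequences and were not tested against the changes.

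Over the 24 arrays, other genes followed the members closely. By Pearson's r between the brightest probes, over 12680 genes above the median, the nearest genes were GOLM2 (0.962) and GGNBP2 (0.96) for JAK1, ARHGEF10 (0.994) and SHROOM2 (0.993) for JAK2, and CXXC1 (0.958) and UROS (0.951) for TYK2. For the transcription factors they were RRBP1 and PEPD (0.99 each) for STAT3, CYB5R1 (0.98) and EVI5L (0.973) for STAT4, TLCD3A (0.994) and JAM2 (0.993) for STAT5A, ARHGAP11A and MRPL42 (0.955 each) for STAT5B, and NCSTN (0.992) and SLTM (0.988) for STAT6. Arrays of a group share line and treatment, so that these values mainly describe the order of the 8 groups.

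The surroundings of the members in the pathway were read from 106 further genes, of which 101 had a probe: 36 receptor chains, 24 ligands, 19 inhibitors, 7 partner proteins and 15 genes known as STAT targets in lymphoid cells. In DoHH2 cells 23 of them were higher and 27 lower after ITF-A, and 19 were higher and 24 lower after ITF-B. TMD8 cells gave 15 higher and 40 lower after ITF-A, then 13 and 35 after ITF-B. Their median change lay between -0.08 and -0.01, against -0.00 to 0.00 for all genes. Over all genes, 18.8% to 19.3% rose and 17% to 17.8% fell in these comparisons. In all 4 comparisons 9 of the 101 genes rose and 19 fell, beside 11.2% and 9.92% of all genes.

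Receptor chains rose and fell in similar number in DoHH2 cells (10 and 7 of 36 after ITF-A, 7 and 6 after ITF-B), while in TMD8 cells 5 rose and 14 fell after ITF-A, 4 rose and 11 fell after ITF-B, and the other 17 and 21 were not called. In TMD8 cells 19.2% and 19.3% of all genes rose and 17.8% and 17.4% fell with ITF-A and ITF-B. Above the median of probes lay 24 of the 36 chains. The chains of the interferon gamma receptor moved apart. IFNGR1, which binds the ligand and carries JAK1, rose by 1.19 and 1.06 in DoHH2 and 0.91 and 0.88 in TMD8 cells (SE 0.0754). IFNGR2, which carries JAK2, fell, with changes of -1.02 and -0.86 in DoHH2 and of -1.49 and -1.37 in TMD8 cells (SE 0.0836). IL3RA, the interleukin-3 binding chain, rose by 0.30, 0.26, 0.62 and 0.61 in the order DoHH2 with ITF-A and ITF-B, then TMD8 with ITF-A and ITF-B. IL27RA fell, by log2 changes of -1.06, -0.95, -0.32 and -0.23 in the same order. Its ITF-B call in TMD8 cells was lost without the DMSO array of experiment 1 or 2 or the ITF-B array of experiment 3 (-0.22, -0.22 and -0.15, adjusted p = 0.0514, 0.0501 and 0.187). Without normalization neither TMD8 change of IL27RA was called (-0.19 and -0.07, adjusted p = 0.0823 and 0.6). In that setting IL3RA in DoHH2 cells with ITF-B was at 0.14 and was not called (adjusted p = 0.16).

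With both compounds 6 genes rose in DoHH2 and fell in TMD8 cells, and 4 of these were receptor chains. Of all genes, 1.33% were called in opposite directions in the lines with both compounds. IL10RA and IL10RB form the interleukin-10 receptor. IL10RA changed by 0.68 and 0.69 in DoHH2 and by -0.71 and -0.62 in TMD8 cells (SE 0.0834), and IL10RB by 0.74 and 0.73 and by -0.25 and -0.23 (SE 0.0669). IL4R and IL13RA1 form a receptor for interleukin-4 and interleukin-13. IL4R changed by 0.31 and 0.27 and by -0.28 and -0.21 (SE 0.0703), and IL13RA1 by 0.76 and 0.72 and by -0.43 and -0.45 (SE 0.0756). The phosphatase PTPN1 changed by 0.73 and 0.72 and by -0.32 and -0.32 (SE 0.0694), and the kinase PIM1 by 0.24 and 0.29 and by -0.35 and -0.36 (SE 0.0866). For all 6 genes the difference between the lines was called with each compound (adjusted p at most 0.000366).

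The smaller of these changes depended on single arrays and on settings. PIM1 with ITF-A in DoHH2 cells was at 0.19 to 0.23 (adjusted p from 0.0895 to 0.197) without the DMSO array of experiment 1 or 2 or the ITF-A array of experiment 2 or 3. With ITF-B PIM1 was at 0.22 to 0.26 (adjusted p from 0.058 to 0.0993) without the DMSO array of experiment 2 or 3 or the ITF-B array of experiment 1. In TMD8 cells with ITF-B, IL4R was at -0.20, -0.17 and -0.15 (adjusted p = 0.072, 0.12 and 0.185) without the DMSO array of experiment 2, that of experiment 3 or the ITF-B array of experiment 2. IL10RB was at -0.19 (adjusted p = 0.0704) without that ITF-B array and at -0.11 (adjusted p = 0.075) with the mean of its probes.

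Without normalization, IL10RA and IL13RA1 kept all 4 calls and the other 4 genes did not. IL4R lost its calls in DoHH2 cells with ITF-B (0.15, adjusted p = 0.213) and in TMD8 cells (-0.19 and -0.08, adjusted p = 0.119 and 0.608). IL10RB lost those in TMD8 cells (-0.24 and -0.12, adjusted p = 0.0549 and 0.413) and PTPN1 that in TMD8 cells with ITF-B (-0.18, adjusted p = 0.145). PIM1 lost those in DoHH2 cells (0.09 and 0.06, adjusted p = 0.726 and 0.747) and that in TMD8 cells with ITF-B (-0.27, adjusted p = 0.0992). The ITF-A call of PIM1 in DoHH2 cells was also lost with an offset of 16 (0.27, adjusted p = 0.101), in the authors' table (0.22, adjusted p = 0.0583) and with no chip term (0.24, adjusted p = 0.0647). With an offset of 16 or in a fit of the compared arrays alone, IL4R in TMD8 cells with ITF-B was at -0.25 and -0.21 (adjusted p = 0.0609 and 0.0646). On the single TMD8 pair of chip 2, IL10RB, IL4R and PIM1 passed with neither compound and PTPN1 did not pass with ITF-B, where PIM1 was at -0.02.

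**Figure D4:**
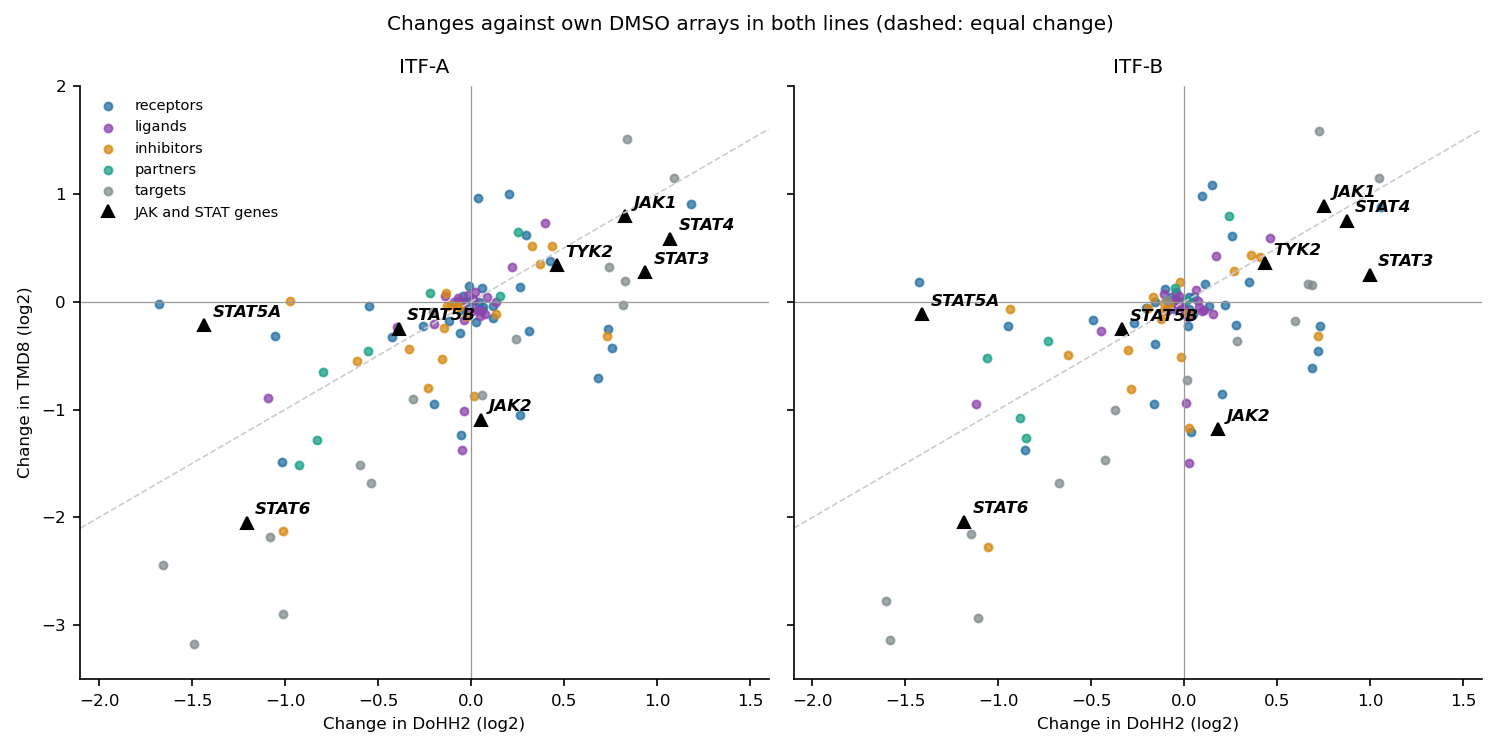
Change in DoHH2 (x axis, log2) against change in TMD8 cells (y axis, log2) for the 8 JAK and STAT genes (labelled triangles) and 101 other genes of the pathway (points, colored by list), with ITF-A left and ITF-B right; the dashed line marks equal change. JAK2 and STAT5A lay near an axis, and STAT6 lay below the line of equal change among the targets and inhibitors that fell further in TMD8 cells.

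Ligand genes were mostly dim, with 11 of 24 above the median of probes, and 19, 21, 17 and 18 of them did not pass. After ITF-A and ITF-B, 2 and 1 rose and 3 and 2 fell in DoHH2 cells. In TMD8 cells 2 and 2 rose and 5 and 4 fell. Of all genes, 18.8% to 19.3% rose and 17% to 17.8% fell in these comparisons. IL15 rose by 0.40, 0.46, 0.73 and 0.59 in the 4 comparisons (DoHH2 with ITF-A and ITF-B, then TMD8). EBI3, a subunit shared by interleukin-27 and interleukin-35, fell (-1.09, -1.12, -0.89 and -0.95), and so did IL12A, a subunit of interleukin-12 (-0.40, -0.45, -0.23 and -0.27). The IL12A calls in TMD8 cells were lost without the DMSO array of experiment 3 (-0.18, adjusted p = 0.114) or the ITF-A array of experiment 2 (-0.20, adjusted p = 0.0849), and without the ITF-B array of experiment 3 (-0.18, adjusted p = 0.0957). Without normalization neither TMD8 change of IL12A was called (-0.14 and -0.13, adjusted p = 0.312 and 0.352).

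Among inhibitors of the pathway, 4 of 19 rose and 5 fell in DoHH2 cells with each compound, beside the 18.8% to 19% of all genes that rose and the 17% to 17.2% that fell there. TMD8 cells gave 3 higher and 8 lower of the 19 after ITF-A, 4 higher and 7 lower after ITF-B. There 19.2% and 19.3% of all genes rose and 17.8% and 17.4% fell. Of the 19 inhibitors 18 lay above the median of probes. The tyrosine phosphatase PTPN6 (SHP-1), which removes phosphate from JAK kinases, changed by -1.01 and -1.06 in DoHH2 and by -2.12 and -2.28 in TMD8 cells (SE 0.0759), and the line difference was called (-1.12 and -1.22). PTPN2, which acts on JAK1 and STAT proteins, fell as well (-0.61, -0.63, -0.55 and -0.49). The SUMO ligase PIAS4 rose by 0.44, 0.41, 0.52 and 0.42, and the ubiquitin ligase CBL by 0.33, 0.36, 0.51 and 0.43. Without normalization the DoHH2 calls of both genes were lost. PIAS4 was then at 0.22 and 0.14 in DoHH2 cells (adjusted p = 0.0701 and 0.293) and CBL at 0.14 and 0.09 (adjusted p = 0.408 and 0.539).

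Of 7 partner proteins, 1 rose and 4 fell in each comparison. All 7 lay above the median of probes, where 54.4% to 55.5% of genes were called in either direction. IRF9, the DNA-binding partner of STAT proteins in type I interferon signaling, gave changes of -0.83, -0.85, -1.28 and -1.26 (SE 0.0792). NMI, which binds STAT proteins, gave -0.92, -0.88, -1.51 and -1.08 (SE 0.154). The coactivators CREBBP and EP300 also fell in all 4 comparisons, from -1.06 to -0.52 and from -0.73 to -0.36, and were chosen for mention after their values were seen. The adaptor STAM rose by 0.25, 0.24, 0.64 and 0.79. In DoHH2 cells with ITF-B STAM was at 0.19 without the DMSO array of experiment 2 (adjusted p = 0.0768) or the ITF-B array of experiment 3 (adjusted p = 0.0823). Without normalization neither DoHH2 change of STAM was called (0.15 and 0.07, adjusted p = 0.309 and 0.629).

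The 15 targets were chosen as genes known to respond to STAT factors, and many other factors act on them too. In DoHH2 cells 6 were raised and 8 lowered by ITF-A, while ITF-B raised 6 and lowered 7. In TMD8 cells each compound lowered 9, while 4 rose after ITF-A and 2 after ITF-B. All 15 targets lay above the median of probes, and 54.4% to 55.5% of the genes there were called in either direction. In DMSO all 15 differed between the lines, 11 higher and 4 lower in TMD8 cells, with a median difference of 0.71. The share that differed in DMSO was 43.8% of all genes and 65.2% of those above the median of probes. The part of these starting levels in the changes was not tested. In TMD8 minus DoHH2 cells the change was lower for 12 of 15 and higher for 1 with each compound. Beside this, 22.4% and 22.6% of all genes were called in either direction, and 33.7% and 34.1% of those above the median of probes. The median change of the targets was -0.20 and -0.09 in DoHH2 and -0.87 and -0.72 in TMD8 cells. BATF, an AP-1 factor of activated B cells, changed by -1.49 and -1.58 in DoHH2 and by -3.18 and -3.14 in TMD8 cells. The growth regulator MYC changed by -1.66, -1.61, -2.44 and -2.78. The germinal center repressor BCL6 rose by 0.84 and 0.72 in DoHH2 and by 1.51 and 1.59 in TMD8 cells, and the cyclin CCND3 rose by 1.09, 1.04, 1.15 and 1.14.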

How the data were processed

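Per the labels, RNA was hybridised to HumanHT-12 v4 BeadChips, and the authors deposited 1 linear intensity per probe and array (47231 probes, 24 arrays), without detection p-values in the columns used. The authors also deposited log2 values, for which the methods give quantile normalization and ComBat. On comparison, every column of that table matched its own array best among the normalized intensities (lowest r 0.999826), and the table served as an alternative. The number of arrays limits the precision. No column of another sample was present.

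Intensities were corrected with normexp and an offset of 50, quantile-normalized and taken to log2 in R 4.3.3 with limma 3.58.1. A linear model of all 24 arrays held the 8 groups and the 2 chips (15 residual degrees of freedom), with moderated tests and Benjamini-Hochberg adjustment over all probes. A difference between the lines in their change is the interaction of line and treatment. Gene names come from GEO's annotation of the array (30113 with 1 gene symbol, 8 with several, 17110 with none), the probe with the highest mean stood for a gene, and no dim probe was left out. All errors given as SE and all intervals come from this model. Promoters were taken from RefSeq (GRCh38.p14), which held all 8 measured genes. Plots used matplotlib 3.10.9 under Python 3.11.15.

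The members and the lists of pathway genes and markers were chosen with earlier results of these data known. Named genes were all probes of the members and, per pathway list, up to 2 genes with the largest rise and 2 with the largest fall among those called in 1 direction in all 4 comparisons, all genes called in opposite directions in the lines with both compounds, and the 2 genes most like each member. Other genes of the JAK and STAT families are not reported here.

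Labels and methods give 3 independent experiments, which pairs arrays of 1 number. Within these pairs, deviations from the group mean correlated at a mean r of 0.0524 (DoHH2, ITF-A), 0.0606 (DoHH2, ITF-B), 0.0488 (TMD8, ITF-A) and 0.0240 (TMD8, ITF-B) over 23615 probes. The 4 arrays of a line in 1 experiment lay on 1 chip.

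The alternatives were no background correction, an offset of 16, the authors' table, a filter on dim probes, no chip term, ComBat on the chip (rewritten for 2 batches), a replicate block, the arrays of a comparison alone, each chip alone, both DMSO groups as control, the mean of a gene's probes, each array left out, and, chosen after seeing the data, no normalization.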

Additional observations from a re-analysis of the deposited data

Results flagged for a closer look

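The change after treatment differed between the lines, by the test of the difference itself, for 5 of the 8 genes under ITF-A and for 4 under ITF-B. As TMD8 minus DoHH2 on the log2 scale, the values with ITF-A were -1.145 for JAK2, -0.6641 for STAT3, -0.4876 for STAT4, 1.219 for STAT5A and -0.8417 for STAT6. With ITF-B they were -1.362 for JAK2, -0.7447 for STAT3, 1.293 for STAT5A and -0.8559 for STAT6. JAK2 fell in TMD8 cells and did not pass in DoHH2 cells, STAT6 fell in both lines, and STAT3 and STAT4 rose in both. STAT5A fell in DoHH2 cells with both compounds and in TMD8 cells with ITF-A. The part that the levels before treatment had in these differences was not tested. Groups of 3 arrays were not examined for outlying arrays.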

How the results depend on the processing

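With the replicate block in place of the chip the members called were 7 (DoHH2) or 8 (TMD8) after ITF-A treatment, and 7 in either line after ITF-B, while 5 and 4 differed between the lines, as without it. The block changed no call of a member. The contrast of the lines in DMSO could not be fitted with the block. Over all 13 settings, counts of members called ran from 6 to 7 and 6 to 8 in DoHH2 cells, and with each array left out they were 7 and from 7 to 8. In TMD8 cells they ran from 5 to 8 and 5 to 7, and from 6 to 8 and 6 to 7 with an array left out. In TMD8 cells chip 2 alone called 5 members with ITF-A and 3 between the lines, and no normalization called 5 with ITF-A. On each chip alone some groups held 1 array, assumed to vary like the others, and fewer samples were tested. Of 712 values of members under other settings, 670 kept direction and side of the threshold. With arrays left out, 1324 of 1344 did.

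Signs changed mainly for values near 0. TMD8 minus DoHH2 in DMSO, STAT4 gave 0.007896 with no chip term and 0.01672 on chip 2, and without normalization, which moved the median of all genes by -0.111 there, JAK1 gave -0.2139, TYK2 -0.03591 and STAT6 -0.06313. Between the lines in their change with ITF-A, chip 1 gave 0.06897 for JAK1 and 0.04582 for TYK2, and no normalization 0.0952 and 0.1126. With ITF-B, chip 1 gave -0.222 for JAK1, chip 2 gave 0.04043 for TYK2 and -0.2623 for STAT5B, and no normalization gave 0.3418 for TYK2 (adjusted p = 0.0135, with the median of all genes moved by 0.141) and 0.01352 for STAT4. In TMD8 cells with ITF-B, STAT5A was 0.1025 on chip 2 and 0.0102 without normalization, and IL4R was 0.001628 on chip 2. With an array left out, JAK2 with ITF-A in DoHH2 cells ran from -0.01513 to 0.1164, the ITF-A difference of JAK1 from -0.14 to 0.02988, and STAT4 in DMSO from -0.04035 to 0.03291. The cause was not tested. Probes near the median of all probes, such as STAT4 in DMSO, are the least precise in fold.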
